A study of Nannochloropsis oceanica strain IMET1 with 15 samples.

Results

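The mitochondrial genome of *Nannochloropsis oceanica* strain IMET1 is represented by the 35 genes whose identifiers begin with mt-, out of 10493 genes in the deposited expression matrix. The other genes are 125 of the chloroplast genome and 10333 of the nucleus. All 35 names, and the lengths of all 35 genes, matched the mitochondrial entries of the RefSeq gene table. *N. oceanica* is a unicellular marine alga grown for its oil, and the study asked how N6-methyladenine (6mA) in its DNA relates to transcription and growth. RNA-seq was compared in 15 libraries from cultures kept under high light and harvested at the same age, 3 biological replicates each of the lines M1 and M2, in which NO08G00280, a putative 6mA methyltransferase, was knocked out, of the lines M3 and M4, in which NO06G02500, a putative 6mA demethylase, was knocked out, and of the wild type (WT). M1 to M4 were made by CRISPR-Cas9, were selected on zeocin through a bleomycin resistance gene (ShBle) carried by the vector, and were each raised from 1 resistant colony. A line is therefore 1 clone, the WT is not stated to carry the vector, and p-values measure the spread between replicate cultures of a clone. The transcripts of the targeted genes were not depleted in the mutants: NO08G00280 had 11.0, 8.82 and 5.94 TMM-normalized TPM in M1 and 7.42, 7.64 and 6.74 in M2, against 6.70, 8.36 and 9.57 in the WT, and NO06G02500 had 76.7, 69.8 and 69.0 in M3 and 54.5, 55.3 and 58.1 in M4, against 58.8, 55.3 and 55.7 in the WT. Transcript level does not check a Cas9 edit. The paper shows edited sequences of the mutants where the guide RNAs cut, and its methods describe a check of variants there by resequencing. That evidence was not re-examined here, so the labels rest on the submitters.

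Mitochondria make ATP by passing electrons along a chain of protein complexes in their inner membrane and letting the protons pumped on the way return through ATP synthase. NADH dehydrogenase (complex I), the cytochrome bc1 complex (complex III) and cytochrome c oxidase (complex IV) pump the protons, and ATP synthase is complex V. Most mitochondrial proteins are encoded in the nucleus and imported. The small mitochondrial genome keeps genes for some subunits of these complexes and, in algae and plants, for some ribosomal proteins. In this alga the retained genes are 10 of complex I (the nad genes), 1 of complex III (cob), 3 of complex IV (cox1, cox2 and cox3), 4 of complex V (the atp genes), 11 of the small and 5 of the large ribosomal subunit (the rps and rpl genes) and tatC, a subunit of the twin-arginine translocase that moves folded proteins across membranes. No ribosomal RNA or transfer RNA is among the 35.

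Values are TPM, the usual abundance unit of RNA-seq, a measure per gene length, scaled across libraries by the trimmed mean of M values (TMM). Mitochondrial transcripts were scarce: they summed to between 86.3 and 166 TMM-normalized TPM in a library, or 0.00840% to 0.0170% of all values. The coverage in the deposited tables times the gene spans came to between 152311 and 364699 aligned bases over the 35 genes in a library, a mean depth of 5.65 to 13.5, or the bases of 1015 to 2431 reads of 150 bases. The paper's methods do not state how messenger RNA was selected, and what selection leaves of organelle RNA was not measured. In bulk RNA, fewer mitochondria per cell and fewer transcripts per mitochondrion cannot be told apart.

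The transcripts of the respiratory chain core stood highest. Averaged over the 15 libraries, mt-cox1, the catalytic subunit of cytochrome c oxidase (positions 1 to 1521 of the mitochondrial record, plus strand), had 13.6 TMM-normalized TPM, and mt-atp6 (4870 to 5658), the proton channel subunit of ATP synthase, had 12.7. The other complex IV subunits, mt-cox2 (33662 to 34570) and mt-cox3 (18381 to 19193), averaged 9.02 and 8.96. They were followed by mt-rpl2, a protein of the large ribosomal subunit, at 7.29, by mt-cob (17174 to 18334), cytochrome b, at 6.14, and by mt-nad7 (36606 to 37802), a subunit of the hydrophilic arm of complex I, at 5.45. Next came mt-atp1, the alpha subunit of ATP synthase, at 4.77, mt-atp8, a small membrane subunit of the same enzyme, at 4.54, and mt-nad11, an iron-sulfur subunit of complex I, at 3.91. These 10 genes made up 64.6% of the summed mitochondrial values.

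Genes of the same complex were not at the same level. Within ATP synthase, mt-atp9, the subunit of the membrane rotor, averaged 0.988 TMM-normalized TPM against 12.7 for mt-atp6. The 10 complex I genes ranged from 0.345 for mt-nad4L to 5.45 for mt-nad7 with a median of 1.99, and the 16 ribosomal protein genes from 0.514 for mt-rps14 to 7.29 for mt-rpl2 with a median of 1.76. The medians of complexes IV and V were 9.02 and 4.65. The 5 lowest genes, mt-nad4L, mt-rps14, mt-nad6, mt-rps12 and mt-atp9, span 228 to 588 bases.

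Neighbours on the genome also differed in level. All genes lie on the plus strand except mt-tatC (6895 to 7611), and several ribosomal protein genes sit almost end to end. In the run mt-rpl2, mt-rps19, mt-rps3, with gaps of 6 and 3 bases, the mean levels were 7.29, 2.18 and 1.19. The mean of mt-rps19 includes 10 libraries listed at 0, while its values above 0 ran from 3.23 to 9.45, so its place between the others rests on the zeros. Since the libraries were unstranded, reads from the opposite strand of any of these genes would be counted with it.

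**Figure D1:**
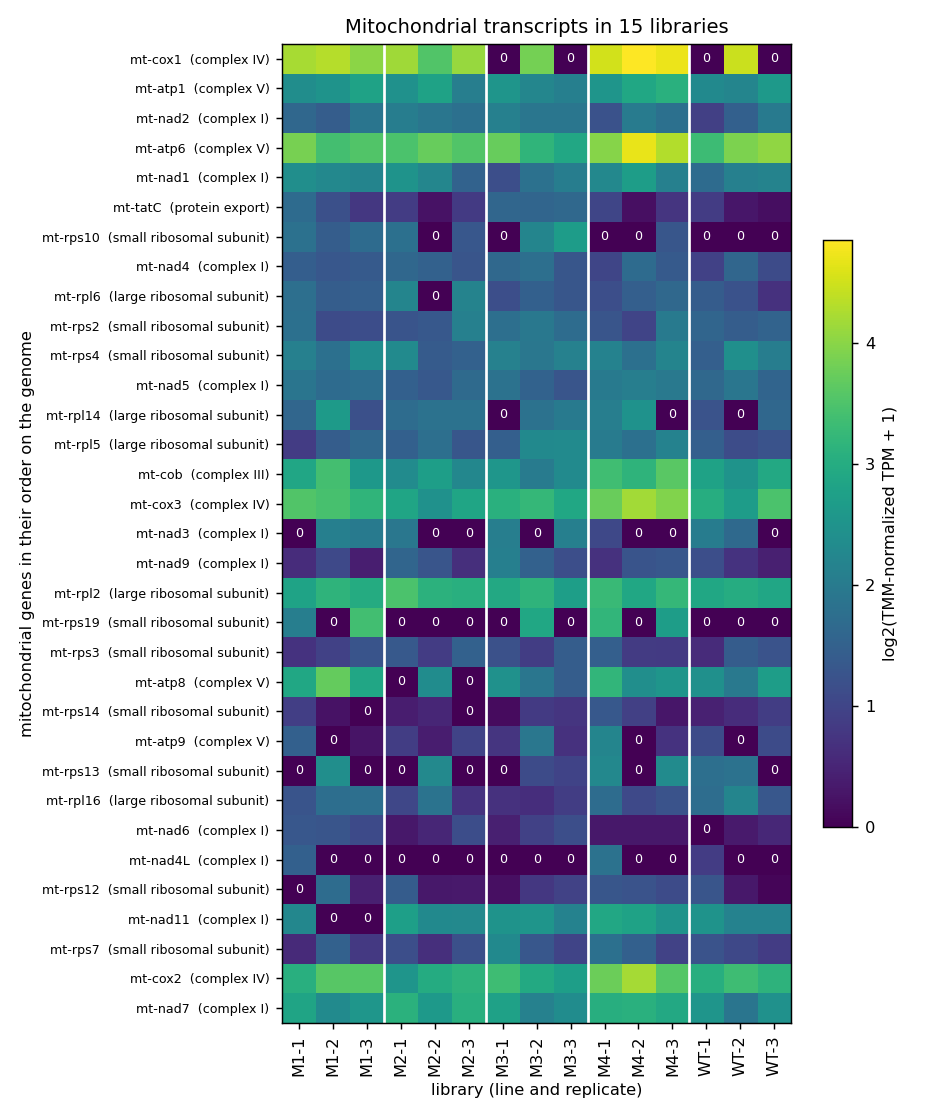
Level of 33 of the 35 mitochondrial genes (down the page, in their order on the genome) in each of the 15 libraries (across, M1 to M4 and then WT), as log2(TMM-normalized TPM + 1), with values listed as exactly 0 marked. mt-cox1, mt-atp6, mt-cox2 and mt-cox3 are the brightest bands, and mt-cox1 is listed at 0 in 4 libraries and at 10.6 or more in the other 11.

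Some zeros in these tables do not fall among low values. Of the 525 mitochondrial values 65 are exactly 0 (12.4%, against 8.61% of nuclear and 13.6% of chloroplast values), spread over 15 genes, 7 of the respiratory chain and ATP synthase and 8 ribosomal. The other 20 genes were above 0 in every library. mt-cox1 is listed at 0 in M3 replicates 1 and 3 and in WT replicates 1 and 3, while its lowest value elsewhere was 10.6, with 37851 aligned bases. mt-nad11 is listed at 0 in M1 replicates 2 and 3 and had at least 3.42, with no fewer than 9857 aligned bases, in the other 13 libraries. Both are among the most abundant genes, so these zeros stand apart from a gradual decline, and their origin was not tested.

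The remaining zeros fall mostly in short genes. The genes with a 0 had a median span of 369 bases, against 820.5 bases for the 20 genes without one, and mt-nad4L and mt-rps19 are listed at 0 in 12 and 10 of the 15 libraries. mt-atp8, of 315 bases, is listed at 0 in M2 replicates 1 and 3. The sums, and the main counts over many genes, are therefore also given over the 20 genes without zeros, a choice made after the values were seen.

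Mitochondrial transcripts were most abundant in M4. Over the 20 genes without zeros the sums were 98.1, 115.5 and 103.7 TMM-normalized TPM in M4 and 80.5, 70.8 and 63.3 in M3, against 64.9, 72.8 and 78.7 in the WT. Each M4 library was above each WT and each M3 library, and the M4 mean was 1.47 times that of the WT, while the M3 mean was 0.992 times. M1 and M2 overlapped the WT, with 77.3, 79.4 and 77.0 in M1 and 73.2, 70.9 and 66.8 in M2. Over all 35 genes the M4 sums were 166.1, 165.6 and 156.8, against 86.3, 111.3 and 96.0 in the WT.

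Part of the spread in that full sum comes from the libraries in which mt-cox1 is listed at 0. M1 stood above the WT in all 3 libraries over the 35 genes, with a ratio of 1.28, and also without mt-cox1 (1.19), but its ratio over the 20 genes was 1.08 with overlap. M4 stood above the WT by each of the 3 sums, with ratios of 1.66, 1.52 without mt-cox1 and 1.47. No test was run on these sums.

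**Figure D2:**
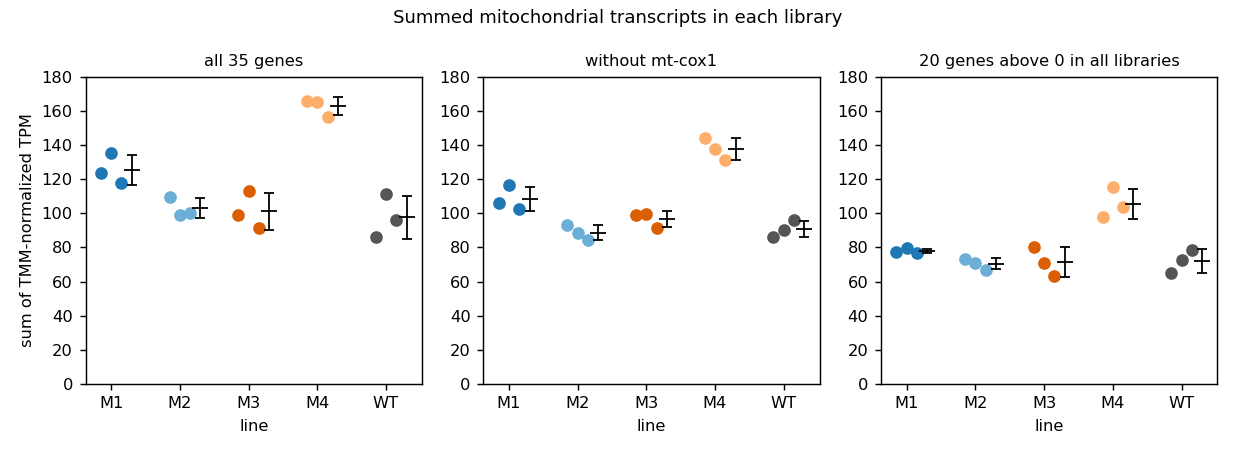
Summed TMM-normalized TPM of mitochondrial genes in each library (points) with the mean and SD of the 3 libraries of a line, over all 35 genes, without mt-cox1, and over the 20 genes above 0 in every library. M4 lies above the WT in all 3 panels, with means of 163, 138 and 106 against 97.8, 90.8 and 72.1.

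Between the 2 knockout lines of the demethylase gene, the genes called higher in M4 than in M3 were mt-cob of complex III, mt-cox1, mt-cox2 and mt-cox3 of complex IV and mt-atp6 of complex V, and mt-tatC was called lower. Of the 35 genes, 30 reached a mean of 1 over all libraries and were tested, among 9440 genes of the whole matrix, with limma on log2(value + 1) and Benjamini-Hochberg adjustment over all 9440. An adjusted p under 0.05 is called a rise or a fall here, and log2-fold changes on this scale understate the change of weak genes. The 5 untested genes (mt-atp9, mt-rps12, mt-nad6, mt-rps14 and mt-nad4L) have no call. Between M4 and M3, 5 of the 30 were higher in M4, where 11.8% of all tested genes were, and 1 was lower, where 13.9% were. At an unadjusted p under 0.05 these counts were 9 and 1, against 17.6% and 20% of all tested genes. Over the 20 genes without zeros, 4 were called higher and 1 lower.

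Cytochrome b showed the difference with the smallest adjusted p. mt-cob had 9.32, 7.93 and 11.3 TMM-normalized TPM in M4, against 4.85, 3.07 and 3.99 in M3. The lowest M4 library was above the highest M3 library, and the WT, with 5.97, 4.62 and 6.65, lay between the means of the lines. Its log2-fold change between M4 and M3 was 1.08 (standard error 0.24, limma adjusted p = 0.00735), and the call held without each of the 6 libraries.

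mt-cox3, a core subunit of cytochrome c oxidase, was higher in M4 than in both M3 and the WT. It had 12.3, 17.1 and 14.3 TMM-normalized TPM in M4 and 7.42, 8.44 and 6.45 in M3, against 7.17, 5.45 and 10.2 in the WT. Every M4 library exceeded every M3 and WT library. The log2-fold change was 0.88 against M3 (standard error 0.21, limma adjusted p = 0.0111) and 0.88 against the WT (standard error 0.21, limma adjusted p = 0.0363). Against the WT it was the 1 gene of the 30 that rose, where 1.64% of all tested genes did, and none fell, where 3.69% of all did.

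These calls depend on single libraries to a different degree. Against M3 the mt-cox3 call ended without M4 replicate 2 (log2-fold change 0.77, adjusted p = 0.0513 from limma). Against the WT it ended without M4 replicate 1 (0.99, 0.0611), M4 replicate 2 (0.77, 0.143), M4 replicate 3 (0.89, 0.0745), WT replicate 1 (0.86, 0.102) or WT replicate 2 (0.69, 0.114), and when the M4 and WT libraries were fitted by themselves.

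mt-cox2, a copper-binding subunit of the oxidase, had 12.6, 17.3 and 10.9 TMM-normalized TPM in M4 and 9.21, 6.67 and 5.56 in M3, against 7.27, 9.20 and 7.82 in the WT. The lines did not overlap. The log2-fold change of M4 against M3 was 0.84 (standard error 0.23, limma adjusted p = 0.0222), and against the WT it was 0.67 (adjusted p = 0.126). mt-atp6 had 14.7, 24.7 and 18.6 in M4 and 12.2, 8.09 and 6.52 in M3, against 9.01, 13.9 and 15.6 in the WT. M4 lay above M3 in every library but overlapped the WT. The log2-fold change was 1.04 against M3 (standard error 0.25, limma adjusted p = 0.0122) and 0.56 against the WT (adjusted p = 0.232). The mt-atp6 call against M3 ended without M3 replicate 3 (0.86, adjusted p = 0.0525) or M4 replicate 2 (0.86, 0.0564), and that of mt-cox2 without M3 replicate 2 (0.81, 0.0615), M3 replicate 3 (0.70, 0.0849) or M4 replicate 2 (0.67, 0.0929).

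mt-cox1 had 21.9, 27.9 and 25.2 TMM-normalized TPM in M4 and is listed at 0, 13.3 and 0 in M3, and at 0, 21.1 and 0 in the WT. Each M4 library was above the 1 value over 0 in M3 and in the WT. Its fitted difference from M3 had an adjusted p of 0.0491, but it rests on the libraries listed at 0, and with these values taken as missing the log2-fold change was 0.85 (standard error 0.27, limma adjusted p = 0.0526). The call also ended without M3 replicate 1 (adjusted p = 0.137), M3 replicate 3 (0.163), M4 replicate 1 (0.0855), M4 replicate 2 (0.122) or M4 replicate 3 (0.106).

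**Figure D3:**
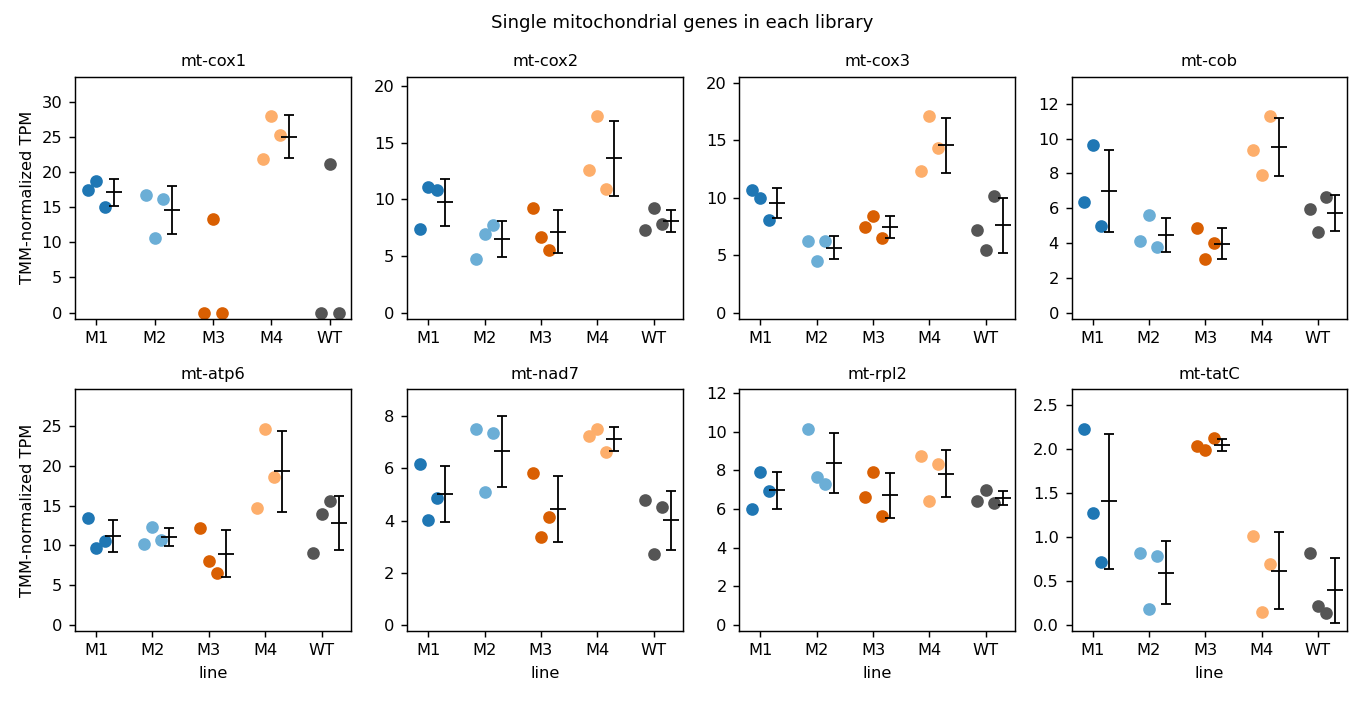
TMM-normalized TPM of 8 mitochondrial genes in each library (points), by line, with the mean and SD of 3 libraries drawn where no library is listed at 0. M4 stands above M3 in mt-cox2, mt-cox3, mt-cob and mt-atp6, and M3 stands above M4 and the WT in mt-tatC.

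No ribosomal protein gene was called between M4 and M3. Of the 15 tested genes of the respiratory chain and ATP synthase, 5 were higher in M4 than in M3 and 0 were lower by limma's adjusted p (9 and 0 at an unadjusted p under 0.05), with a median log2-fold change of 0.60. Of all tested genes, 11.8% were higher and 13.9% lower by the adjusted p, and 17.6% and 20% at an unadjusted p under 0.05. Without genes that hold zeros, 4 of 11 were called higher, and the median was again 0.60. Of the 14 tested ribosomal protein genes limma called 0 in either direction (0 at an unadjusted p under 0.05), and their median was 0.05, or -0.09 over the 8 without zeros. The median over all 9440 genes was -0.01. Among the 68 tested chloroplast genes, limma called 11 higher and 0 lower in M4 than in M3, with a median of 0.52. These classes come from gene names and were compared by counts, with no test between them. They also differ in level, with medians of 1.76 TMM-normalized TPM for ribosomal proteins, 1.99 for complex I, 4.65 for complex V and 9.02 for complex IV. The log2 scale used here understates the change of weak genes.

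Of the 8 tested complex I genes, limma called 0 in either direction between M4 and M3 by the adjusted p, while 3, mt-nad7, mt-nad1 and mt-nad5, were higher at an unadjusted p under 0.05 (log2-fold changes 0.60, 0.67 and 0.46, adjusted p = 0.0762, 0.112 and 0.0792 from limma). Of all tested genes, 17.6% were higher and 20% lower at that unadjusted threshold, and 11.8% and 13.9% by the adjusted p. mt-nad7 passed without M3 replicate 1 (0.78, adjusted p = 0.0346). mt-nad2 and mt-nad4, membrane subunits of the proton-pumping arm, had values of -0.30 and -0.21, mt-nad9, a subunit of the hydrophilic arm, -0.49, and mt-nad3, a small membrane subunit that is listed at 0 in some libraries of both lines, -1.04, none of which passed. Over the 8 genes the median was 0.07, and over the 6 without zeros it was 0.13.

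Against the WT, 25 of the 30 genes had a log2-fold change above 0 in M4, as did 48.8% of all tested genes, with a median of 0.36, against -0.01 for all genes. The shift was not particular to the mitochondrion. Of the 68 tested chloroplast genes, 63 lay above 0 in M4 against the WT, with a median of 0.37, and limma called 3 higher and 0 lower. Over the 20 genes without zeros, 16 lay above 0, with a median of 0.31. Of the 30 genes, 7 lay above the WT in all 3 M4 libraries, where 13.7% of all tested genes did, and 0 lay below it, where 15.1% did. Of the 20 without zeros, 6 lay above and 0 below. At an unadjusted p under 0.05, 7 were higher and 0 were lower in M4, against 9.4% and 11.9% of all tested genes.

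mt-tatC was the 1 gene lower in M4 than in M3. It had 1.01, 0.144 and 0.688 TMM-normalized TPM in M4 and 2.03, 1.98 and 2.12 in M3, against 0.820, 0.220 and 0.139 in the WT. The 3 M3 libraries lay close together, above every M4 and WT library, and M1, with 2.23, 1.27 and 0.719, reached as high. The log2-fold change was -0.95 between M4 and M3 (standard error 0.31, limma adjusted p = 0.0394) and 1.16 between M3 and the WT (standard error 0.31, limma adjusted p = 0.0854). It is the only gene on the minus strand, its mean of 1.01 lies just inside the filter of the test, and the lowest of its values rests on 222 aligned bases. The call ended without M4 replicate 2 (-0.72, adjusted p = 0.152) or M4 replicate 3 (adjusted p = 0.0753), and with a pseudocount of 0.1 (adjusted p = 0.0894).

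Relative to mitochondrial sums, which include the genes called higher, no rise in M4 passed the test. Of the sum over the 20 genes without zeros, mt-atp6 took a mean of 18.1% in M4, mt-cox3 13.7%, mt-cox2 12.8% and mt-cob 9.08%. A rise of these genes therefore also raises the sum they are divided by. A missing call on this footing does not show that they rose no more than the other genes. With each mitochondrial gene scaled to the sum of the 20 genes without zeros in its library, limma called 0 genes higher in M4 than in M3 (3 at an unadjusted p under 0.05), and only mt-tatC lower (-1.18, standard error 0.32, limma adjusted p = 0.0193). The log2-fold change of mt-cox3 was then 0.36 (adjusted p = 0.199) and that of mt-cob 0.46 or more under each of the scalings to mitochondrial or organelle sums, with adjusted p up to 0.233. The chloroplast sum was also higher in M4, at 423.8, 564.6 and 514.6 TMM-normalized TPM against 316.3, 305.2 and 276.8 in M3 and 252.4, 383.5 and 381.2 in the WT. The part of this shared rise of organelle transcripts in the differences of single genes was not tested.

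**Figure D4:**
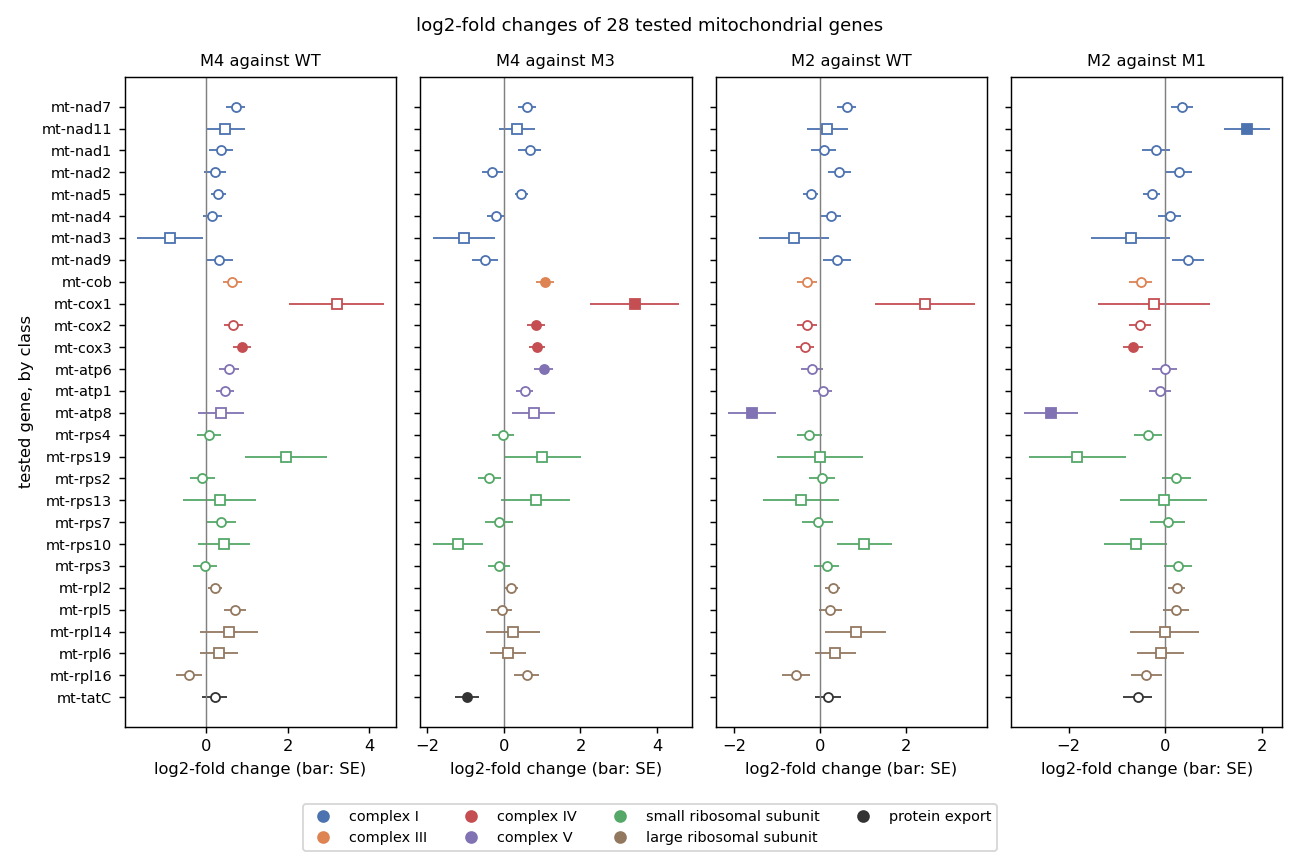
log2-fold changes (points, with SE) of 28 of the 30 tested mitochondrial genes, ordered by class, for M4 against WT, M4 against M3, M2 against WT and M2 against M1. Filled points passed an adjusted p of 0.05 by limma, and squares mark genes listed at 0 in some library. Complexes III, IV and V lie to the right of 0 in M4 against M3, and the ribosomal proteins scatter around it.

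In M2 few mitochondrial genes were called against the WT, while many genes of the whole matrix were. The log2-fold changes of the tested mitochondrial genes ran from -1.57 to 2.44, with standard errors of 0.17 to 1.16. A missing call therefore does not show that a gene stayed the same. Of the 30 tested genes, limma called 0 higher, where 16.5% of all tested genes were, and 1 lower, where 18.2% were. At an unadjusted p under 0.05, 1 was higher and 1 lower, against 21.4% and 22.9% of all. The median was 0.06, and 16 genes lay above 0, as did 49.8% of all. The 1 call was mt-atp8, listed at 0, 4.16 and 0 TMM-normalized TPM in M2, against 4.40, 2.88 and 5.46 in the WT. The 1 M2 library above 0 lay within the WT range, and with zeros taken as missing the log2-fold change was 0.01 (adjusted p = 0.995 from limma), so this call comes from the values of 0. With zeros included it had an adjusted p of 0.0484, and ended without M2 replicate 1 (0.175), M2 replicate 3 (0.167), WT replicate 1 (0.0998), WT replicate 2 (0.0638) or WT replicate 3 (0.132). mt-rpl6 had 3.65, 0 and 3.51 in M2, against 1.66, 1.32 and 0.620 in the WT. With zeros taken as missing it was called higher (log2-fold change 1.09, standard error 0.25, limma adjusted p = 0.00648). With zeros included it was not (0.35, limma adjusted p = 0.610).

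With zeros included, mt-nad7 came closest to a rise in M2. It had 7.52, 5.09 and 7.34 TMM-normalized TPM in M2 and 6.17, 4.01 and 4.88 in M1, against 4.79, 2.72 and 4.52 in the WT. All M2 libraries lay above all WT libraries. The log2-fold change between M2 and the WT was 0.62 (standard error 0.23, limma adjusted p = 0.0549), and it passed when StringTie TPM was used unscaled (0.70, adjusted p = 0.0370), relative to the 20 genes without zeros (0.66, 0.0466), or without M2 replicate 2 (0.78, 0.0388) or WT replicate 1 (0.74, 0.0477). mt-rpl2 had 10.2, 7.65 and 7.32 in M2, against 6.40, 6.98 and 6.32 in the WT. These libraries did not overlap either, but the log2-fold change of 0.30 did not pass (standard error 0.17, limma adjusted p = 0.198).

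Of the complex IV genes, mt-cox3 alone was called between the 2 lines of the methyltransferase gene. It had 6.23, 4.52 and 6.23 TMM-normalized TPM in M2 and 10.6, 9.93 and 8.08 in M1, against 7.17, 5.45 and 10.2 in the WT. Each M2 library lay below each M1 library, and both lines overlapped the WT. The log2-fold change of M2 against M1 was -0.67 (standard error 0.21, limma adjusted p = 0.0363), and those of M2 and M1 against the WT were -0.34 (adjusted p = 0.232) and 0.32 (adjusted p = 0.454). The call ended without M1 replicate 1 (-0.59, adjusted p = 0.121), M1 replicate 2 (-0.64, 0.0985), M2 replicate 1 (-0.73, 0.0610), M2 replicate 2 (-0.54, 0.130) or M2 replicate 3 (-0.73, 0.0556), and also with the unscaled StringTie TPM (-0.61, 0.0560) and relative to the 20 genes without zeros (-0.54, 0.0591). mt-cox2 had 4.75, 6.97 and 7.78 in M2, against 7.37, 11.1 and 10.8 in M1, which overlap, and its log2-fold change of -0.52 did not pass (limma adjusted p = 0.126). mt-cox1 had 16.8, 10.6 and 16.2 in M2, against 17.5, 18.8 and 15.1 in M1, which overlap as well, and did not pass at -0.24 (limma adjusted p = 0.914).

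In all, limma called 2 of the 30 genes lower in M2 than in M1, where 14.1% of all tested genes were, and 1 higher, where 11.8% were. The other fall and the rise rest on zeros. mt-atp8, at 0, 4.16 and 0 in M2, had 6.45, 12.1 and 6.33 TMM-normalized TPM in M1, and mt-nad11 had 5.67, 3.93 and 3.85 in M2, against 3.73, 0 and 0 in M1. With zeros taken as missing, their log2-fold changes were -0.79 (adjusted p = 0.280 from limma) and 0.20 (adjusted p = 0.661). With zeros included, the adjusted p of mt-nad11 was 0.0218, and the call ended without M1 replicate 2 (0.0899), M1 replicate 3 (0.0676) or M2 replicate 1 (0.0766), while that of mt-atp8, 0.010, held without each of the 6 libraries.

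In M1 and in M3 limma called none of the 30 genes against the WT. Of all tested genes, 0.593% rose and 1.13% fell in M1, and 0.646% rose and 0.339% fell in M3. At an unadjusted p under 0.05, 3 of the 30 were higher and 1 lower in M1, against 7.86% and 9.49% of all tested genes. In M3 these counts were 4 and 1, against 10.2% and 10.3%. mt-nad11 fell in M1 without M1 replicate 1 (log2-fold change -2.26, adjusted p = 0.00113 from limma), which leaves the 2 libraries listed at 0. The 30 genes had a median log2-fold change of 0.15 in M1 and 0.12 in M3, with 20 of the 30 above 0 in each line, where 50.9% and 51.1% of all tested genes were. For the means of M1 and M2 and of M3 and M4 against the WT, limma also called none of the 30. Of all tested genes it called 9.87% higher and 12.1% lower in the mean of M1 and M2, and 0.053% and 0.0847% in that of M3 and M4. At an unadjusted p under 0.05, 3 of the 30 were higher and 1 lower in each mean, against 16.9% and 18.1% of all tested genes for M1 and M2 and 4.72% and 6.98% for M3 and M4. The comparisons with the WT share the same 3 WT libraries.

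The makeup of the mitochondrial transcripts depended on which genes were summed. As a share of the sum over the 20 genes without zeros, complex IV (mt-cox2 and mt-cox3) took 25.4%, 29.8% and 24.3% in M4 and 23.3%, 26.4% and 24.6% in M1, against 22.2%, 20.1% and 22.9% in the WT. On this sum both lines lay above the WT in all 3 libraries. With all genes but mt-cox1 in the sum, both overlapped it, with means of 20.5% in M4 and 17.8% in M1, against 17.2% in the WT, and both also overlapped it over all 35 genes. In M2 the share of the 20-gene sum was 15.0%, 16.2% and 21.0%, and in M3 it was 20.7%, 21.3% and 19.0%, and both overlapped the WT.

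The small ribosomal subunit took its largest share in M3. The 5 genes of that subunit without zeros took 15.8%, 16.4% and 17.0% of the sum in M3 and 12.6%, 7.83% and 8.58% in M4, against 12.4%, 14.7% and 12.2% in the WT. All 3 M3 libraries lay above the WT range and above every M4 library. Over all 35 genes M3 again lay above the WT, with means of 21.9% and 14.9%, but without mt-cox1 it overlapped it, at 22.9% and 16.1%. In M1, at 9.55%, 8.74% and 11.6%, the 20-gene share lay below the WT, but over all 35 genes it overlapped the WT with a mean on the other side, 15.4% against 14.9%, and likewise without mt-cox1, 17.8% against 16.1%. Complex III, which is mt-cob alone, took 6.02%, 4.33% and 6.30% in M3, against 9.19%, 6.35% and 8.46% in the WT, so that each M3 library was below each WT library, as also without mt-cox1, but not over all 35 genes. The share of mt-tatC in M3, 2.52%, 2.80% and 3.35%, was above the 1.26%, 0.302% and 0.177% of the WT. Complex I, with 25.2% ± 3.27 in M2 and 22.0% ± 0.953 in M3 (SD, n = 3 each), stood above the 18.4% ± 0.304 of the WT in every library of both lines over the 20 genes. Over all 35 genes these means were 23.0% in M2 and 23.0% in M3, against 20.1% in the WT, and both lines overlapped the WT there and without mt-cox1. Shares of 1 sum move against each other, so a higher share of one class lowers the others.

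Mitochondrial and chloroplast transcripts parted in M2. The chloroplast sum was 191.3, 190.2 and 166.5 TMM-normalized TPM in M2, against 252.4, 383.5 and 381.2 in the WT. All M2 libraries lay below the WT, with a mean 0.539 times that of the WT, while the mitochondrial sum over the 20 genes without zeros was 0.975 times and overlapped it. The ratio of these mitochondrial genes to the chloroplast sum was 0.383, 0.373 and 0.401 in M2, against 0.257, 0.190 and 0.206 in the WT. Each M2 library was above each WT library, and also above the other lines, whose ratios ranged from 0.201 to 0.255.

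Single genes were tested on the same footing, on which a lower chloroplast sum raises every mitochondrial value. Only the mitochondrial genes were rescaled, so calls on this footing also carry the lower chloroplast sum. On the scale of the whole library, limma called 0 of the 30 higher in M2, where 16.5% of all tested genes were. With each mitochondrial gene scaled to the sum of all organelle transcripts of its library, limma called 4 of the 30 higher in M2 than in the WT and 0 lower. These were mt-nad7 (log2-fold change 1.15, standard error 0.28, limma adjusted p = 0.00756), mt-nad2 (0.95, standard error 0.22, limma adjusted p = 0.00651), mt-rpl2 (0.84, standard error 0.19, limma adjusted p = 0.00491) and mt-nad4 (0.68, standard error 0.19, limma adjusted p = 0.0144). Of the 68 tested chloroplast genes, on the scale of the whole library, 17 fell and 2 rose in M2, with a median of -0.57, where 18.2% of all tested genes fell and 16.5% rose. In M4 both sums were higher than in the WT, and the ratio over the 20 genes, 0.231, 0.204 and 0.201, overlapped that of the WT.

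**Figure D5:**
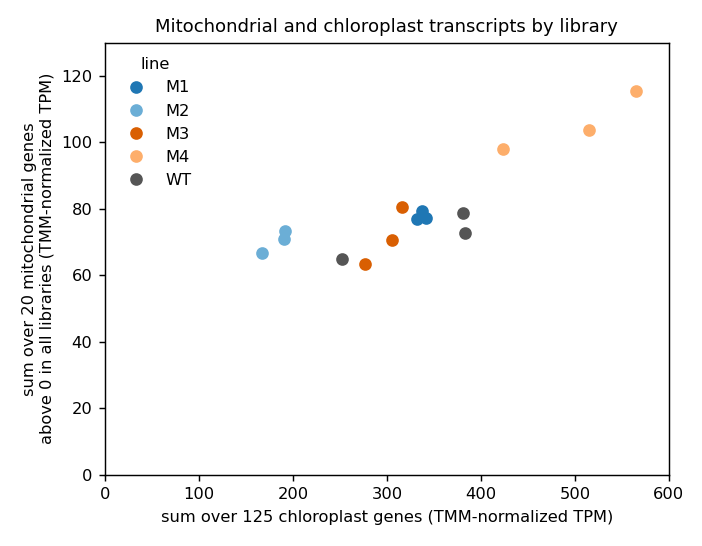
Sum over the 20 mitochondrial genes above 0 in every library (vertical axis) against the sum over the 125 chloroplast genes (horizontal axis), both in TMM-normalized TPM, with 1 point for each of the 15 libraries. M2 lies to the left, at 166.5 to 191.3 for the chloroplast and 66.8 to 73.2 for the mitochondrion, and M4 lies at the upper right.

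A nuclear gene of the same pathway was called lower in M2, where 1 of the 30 tested mitochondrial genes was. It is far more abundant than any of them, and a missing call in those does not show that they stayed the same. NO02G00290, described as alternative oxidase 1A, belongs to a family of enzymes that take electrons from the ubiquinone pool and so bypass complexes III and IV. It had 165.9, 156.2 and 157.5 TMM-normalized TPM in M2 and 420.9, 444.7 and 334.5 in M1, against 441.0, 525.5 and 460.1 in the WT. M2 lay far below both other lines. Relative to the WT, the gene fell in M2 (log2-fold change -1.56, standard error 0.11, limma adjusted p = 4.94e-06). Its value in M1 was -0.26 (standard error 0.11, limma adjusted p = 0.276).

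In the demethylase lines the gene had 515.9, 539.0 and 555.2 TMM-normalized TPM in M4 and 414.8, 394.4 and 322.6 in M3. M4 lay above M3 in every library, with a log2-fold change of 0.52 (standard error 0.11, limma adjusted p = 0.00787), the direction of the cox genes, and its values against the WT were 0.18 in M4 (adjusted p = 0.404) and -0.34 in M3 (adjusted p = 0.140). NO08G01310, described as a mitochondrial carrier, a family that moves metabolites across the inner membrane, had 3.60, 4.38 and 4.11 in M2, against 8.72, 6.73 and 7.37 in the WT. The libraries did not overlap, but the log2-fold change of -0.77 did not pass (standard error 0.32, limma adjusted p = 0.0862). Both nuclear genes were picked from a list that the study drew from these libraries, and so their changes are no independent evidence.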

How the data were processed

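RNA-seq values of 15 libraries (M1, M2, M3, M4 and WT, 3 each, grouped by sample titles) were used. Per the study's methods, libraries of paired 150-base reads were processed with nf-core/rnaseq and aligned with STAR, and Trinity produced a TMM-normalized matrix. The matrix that the authors deposited, recorded here as a score because TMM scaling changes the column sums, holds TMM-normalized TPM. The authors also deposited, for each library, StringTie TPM, FPKM and coverage per gene, with positions. How an exact 0 arose is not given in the sources used here. No counts were used, so depth is known only from coverage times gene span. These products were whole numbers, within 0.01 bases, for 80.6% of the mitochondrial values.

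A mean of 1 or more was required of a gene, and log2(value + 1) was tested with limma 3.58.1 in R 4.3.3, in 1 fit of all 5 groups with a variance trend and Benjamini-Hochberg adjustment over 9440 genes. The study's own test of differential expression needs counts and was not used. Sums, shares and figures were made in Python 3.11.15 with pandas 2.3.3, numpy 2.4.6 and matplotlib 3.10.9, and carry no test. The fit was also run on simulated data with normal noise. Changes were placed there in stronger genes only, so that run does not cover weak genes or zeros among high values. Some results of single genes are not reported here, though sums and counts include them. Any other mitochondrial gene could be named, and full statistics were given for the 10 most abundant and for each gene called. Classes follow gene names. The members and lists were chosen with earlier results of these data known. RefSeq names were used from assembly ASM5162214v2, and positions come from the deposited tables. Alternatives changed the pseudocount (0.1, 0.5), the filter (none, 5), the scaling, the libraries fitted, the block, the limma settings and each library in turn. Those that treat values of 0 as missing or use the 20 genes without zeros were added after seeing the data. No 2 libraries held identical values.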

Additional observations from a re-analysis of the deposited data

Results flagged for a closer look

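The 2 clones of a knockout differed from each other in 9 instances, by limma's direct test between the clones with adjustment over all 9440 tested genes. Of the 30 mitochondrial genes, 5 were higher and 1 lower in M4 than in M3, where 11.8% and 13.9% of all tested genes were. In M2 against M1, 1 was higher and 2 were lower, where 11.8% and 14.1% of all were. Groups of 3 libraries are too small for a test of single outlying samples.

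Between M4 and M3, both knockouts of NO06G02500, the differences were log2-fold changes of 1.08 for mt-cob, 1.04 for mt-atp6, 0.88 for mt-cox3, 0.84 for mt-cox2 and 3.41 for mt-cox1, higher in M4, and -0.95 for mt-tatC, lower in M4. The value of mt-cox1 depends on libraries listed at 0 and is no measure of size. M3 and M4 carry the same targeted gene and differ as clones. Their sample titles also begin with different codes, while those of M1 and M2 begin with the same code. What the codes stand for is not given in the sources used here, so code, clone and culture cannot be told apart.

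Between M2 and M1, both knockouts of NO08G00280, they were -0.67 for mt-cox3, and -2.37 for mt-atp8 and 1.69 for mt-nad11, which rest on libraries listed at 0. What produced the zeros was not tested.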

How the results depend on the processing

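Depth was low, as 1015 to 2431 reads' worth of bases covered the 35 genes of a library, values of 0 occurred in abundant and short genes, and what caused the changes below was not tested unless stated. Counts are of the 30 tested genes that passed limma's adjusted p, and in the fit reported above they were 1 in M2 against WT, 1 in M4 against WT, 3 in M2 against M1, 6 in M4 against M3 and 0 in the others. In M3 against WT, and for the mean of M3 and M4, the count was 0 under each alternative. The alternative that drops rRNA and tRNA genes was not run, as none are among the 35.

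Scaling moved the counts most. With mitochondrial genes scaled to the mitochondrial sum, M4 against WT gave 0 (1 higher and 2 lower at an unadjusted p under 0.05) and M4 against M3 gave 2, both lower in M4. With the sum of all organelle transcripts, M2 against WT gave 4, M4 against WT 0 (1 and 0 unadjusted), M2 against M1 7 (6 higher and 1 lower in M2), and M4 against M3 3, all lower in M4. In the same fit mt-atp6 turned round in M2 against M1, with a log2-fold change of 0.64. With the sum of the 20 genes without zeros, M2 against WT gave 2, M4 against WT 0 (1 and 1 unadjusted) and M4 against M3 1, lower in M4. StringTie TPM or FPKM, quantile normalization, nuclear scaling, pseudocounts and robust variances gave counts within 1.5 times, but in M2 against WT the 1 gene called was mt-nad7, higher, in place of mt-atp8, lower, with StringTie TPM, StringTie FPKM and nuclear scaling, where mt-atp8 had adjusted p = 0.0580, 0.0849 and 0.0580 from limma.

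With zeros taken as missing, M2 against WT gave 1, mt-rpl6, higher, in place of mt-atp8, lower. M2 against M1 gave 1 and the mean of M1 and M2 against WT gave 1 (mt-rpl6), and mt-atp8 in M2 against WT turned to 0.0076. With zeros missing and the 20-gene scaling together, M2 against WT gave 2, M4 against WT 0 (0 and 2 unadjusted), M2 against M1 0, M4 against M3 2 and the mean of M1 and M2 1, and mt-atp8 was at 0.025. With a mean of at least 5, M2 against WT gave 0 (1 and 0 unadjusted) and M2 against M1 gave 1, mt-cox3, since fewer genes were tested. With no filter the mean of M1 and M2 gave 1 (mt-nad6). Without a variance trend M2 against WT gave 2. With only the groups compared, which leaves fewer libraries to estimate the spread, M2 against WT gave 0 (0 and 0 unadjusted), M4 against WT 0 (6 and 0), M2 against M1 0, M4 against M3 2 (mt-cob and mt-cox3) and the mean of M1 and M2 1 (mt-rps10).

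When each library was dropped in turn, 0 to 1 genes were called in M1 against WT, 0 to 3 in M2 against WT, 0 to 1 in M4 against WT, 1 to 2 in M2 against M1, 1 to 7 in M4 against M3 and 0 to 1 for the mean of M1 and M2. In M4 against M3 the lowest came without M4 replicate 2.

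The replicate numbers did not pair the libraries: deviations of same-numbered libraries correlated at -0.074 to 0.087 over 30 pairs, and others at -0.089 to 0.088 over 60. With the replicate block the counts were 1 in M2 against WT (mt-nad7, higher), 0 in M4 against WT (6 and 0 unadjusted), 2 in M2 against M1, 7 in M4 against M3 and 0 in the others.

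Sums of all 35 genes were log2 ratios to the WT of 0.36 in M1, 0.08 in M2 and 0.73 in M4. Over the 20 genes without zeros they were 0.11 in M1 and 0.55 in M4, by aligned bases 0.30 in M2, and the mitochondrial to chloroplast ratio of M1 was 0.084 over the 20 genes, against 0.34. The complex IV share of all 35 genes differed from the WT by 3.34 percentage points in M2 and 10.1 in M4. Without mt-cox1 this was -3.45 in M2 and 3.23 in M4, and over the 20 genes -4.36 in M2. The ribosomal share differed by -0.60 points in M1 and 0.79 in M2, against -4.28 in M1 over the 20 genes, and 3.38 in M2 without mt-cox1 or -0.78 by aligned bases. In M1 the complex IV share differed by 6.44 points, or 0.55 without mt-cox1, and the complex I share of M2 by 2.86, or 6.80 over the 20 genes and 1.39 by aligned bases. Of the log2-fold changes of named genes under alternatives, 1764 kept their direction and side of the threshold, 90 lost a call, 21 gained one, 152 took the other sign with a call in neither fit, and 3 took the other sign with a call in one of the fits.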
